A study of Mus musculus with 6 samples.

Results

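Neutrophils are made in the bone marrow in a fixed order of granule synthesis, and each step has its own transcripts. Promyelocytes transcribe the enzymes of the primary (azurophil) granules, myelocytes and metamyelocytes the proteins of the secondary (specific) granules, and band and segmented cells have largely shut off both and carry transcripts of receptors and of late, gelatinase-type granules. Granule proteins outlast their messenger RNA, and abundant Mpo or Elane RNA marks precursors rather than blood neutrophils. The 32 genes described here span this order and were chosen by name from the 23491 genes of a count table of purified cerebellar microglia. They comprise 5 precursor genes (Mpo, Elane, Prtn3, Ctsg, Ms4a3), 4 secondary granule genes (Cebpe, Camp, Ltf, Ngp), 4 genes of mature cells (Cxcr2, Csf3r, Retnlg, Mmp9) and 19 others. The 19 were sorted by what their products do into 8 other granule-associated, 4 cytosolic or nuclear and 7 surface genes.

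All mice were Fmr1 knock out animals, a model of fragile X syndrome, and no intact-gene group was part of the comparison. One group of 3 libraries came from mice given saline and the other 3 from mice injected intraperitoneally with poly(I:C), a synthetic double-stranded RNA that triggers antiviral responses. Dose, interval, age and sex, and whether a library holds 1 animal or several, are not given in the labels, so the spread within a group may be partly technical. Cells were taken from perfused cerebellum, freed of myelin on Percoll and captured with beads against CD11b, a surface protein of microglia that neutrophils and monocytes carry as well. Levels are given as CPM, which is counts scaled to a common library size with TMM factors,, in the order saline replicate 1, 2, 3 and poly(I:C) replicate 1, 2, 3 unless stated. Library totals ran from 33710545 to 34899835 counts. Microglial markers were high in every library, with Cx3cr1 between 4947 and 6696 CPM, while the 4 neuronal markers with a row summed to between 0.182 and 0.678 CPM. Fmr1 itself was at 37.8 to 62.6 CPM, which does not check the genotype because every library carries the same label. The choroid plexus list summed to 4026 to 8569 CPM in saline and to 19503, 7752 and 9408 CPM in poly(I:C), so poly(I:C) replicate 1 was the highest for it.

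Every member had a row and at least 11 counts in every library, and all 32 passed the filter on low counts through both groups. One library stood apart for these genes. In saline replicate 1, 31 of the 32 members were more than 4 times the mean of saline replicates 2 and 3, against 2.9% of all 14727 genes tested. The exception was Csf3r. The 31 genes without Csf3r took 2.43% of all counts in saline replicate 1 and 0.308% and 0.291% in the other saline libraries. They took 0.298% in poly(I:C) replicate 1 and 0.0624% and 0.0785% in poly(I:C) replicates 2 and 3. The libraries thus lay at about 3 levels, and each treatment group held libraries from more than 1 of them. The median or range of log2 differences of each class is therefore given with and without saline replicate 1. The plot of log2 differences shows every member both ways. Many single genes, and the calls in the marker lists of other cells, are given in the text with all 6 libraries only. Those values may depend on saline replicate 1. In bulk RNA, fewer neutrophils and less RNA per neutrophil cannot be told apart.

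To show what the searched patterns look like in place, the 250 bases before the start site are printed for 3 precursor genes, 2 secondary granule genes and Csf3r (RefSeq, build GRCm38.p6, 5′ to 3′ on the gene's strand; the counts were made on GRCm39). Capitals mark GAGGAAGT, a form of the binding sequence of PU.1, the factor that drives the myeloid lineage, and TTGCNNAA, a form of the C/EBP sequence, which C/EBP epsilon and its relatives bind, on either strand. The windows lie at chr11:87793534-87793783 for Mpo, chr10:79886062-79886311 for Elane, chr10:79879417-79879666 for Prtn3, chr9:111019042-111019291 for Ltf, chr9:110419558-110419807 for Ngp and chr4:126024409-126024658 for Csf3r, all on the plus strand.
Mpo: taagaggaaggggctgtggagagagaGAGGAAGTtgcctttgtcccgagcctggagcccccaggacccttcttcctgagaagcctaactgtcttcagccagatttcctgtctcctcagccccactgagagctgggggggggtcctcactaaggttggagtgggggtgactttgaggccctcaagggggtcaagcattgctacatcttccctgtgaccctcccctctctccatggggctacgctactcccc
Elane: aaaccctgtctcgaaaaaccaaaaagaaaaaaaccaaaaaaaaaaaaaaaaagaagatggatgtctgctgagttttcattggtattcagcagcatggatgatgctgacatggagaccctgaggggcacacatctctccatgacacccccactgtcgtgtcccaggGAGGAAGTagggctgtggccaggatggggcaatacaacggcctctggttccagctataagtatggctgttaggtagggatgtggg
Prtn3: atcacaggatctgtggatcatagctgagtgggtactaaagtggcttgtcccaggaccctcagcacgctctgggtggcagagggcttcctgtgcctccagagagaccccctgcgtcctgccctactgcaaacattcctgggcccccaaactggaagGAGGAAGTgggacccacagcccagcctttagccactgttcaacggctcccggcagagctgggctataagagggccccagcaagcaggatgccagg
Ltf: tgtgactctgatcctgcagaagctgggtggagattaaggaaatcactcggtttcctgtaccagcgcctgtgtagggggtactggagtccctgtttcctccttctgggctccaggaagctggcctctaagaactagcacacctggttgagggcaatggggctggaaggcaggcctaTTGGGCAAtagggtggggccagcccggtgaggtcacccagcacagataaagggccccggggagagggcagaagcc
Ngp: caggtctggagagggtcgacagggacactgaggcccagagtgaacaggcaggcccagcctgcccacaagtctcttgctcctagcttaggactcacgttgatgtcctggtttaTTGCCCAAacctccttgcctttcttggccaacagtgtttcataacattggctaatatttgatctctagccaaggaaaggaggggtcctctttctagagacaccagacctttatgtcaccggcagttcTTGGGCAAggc
Csf3r: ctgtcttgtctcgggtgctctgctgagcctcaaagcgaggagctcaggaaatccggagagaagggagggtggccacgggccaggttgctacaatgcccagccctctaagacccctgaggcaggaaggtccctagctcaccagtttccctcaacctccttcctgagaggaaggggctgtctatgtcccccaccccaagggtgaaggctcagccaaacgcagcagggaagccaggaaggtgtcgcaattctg

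The 3 protease and peroxidase genes each held 1 GAGGAAGT, starting 224 bases before the start site in Mpo, 85 in Elane and 95 in Prtn3. Ltf held 1 C/EBP match, 75 bases before its start, and Ngp held 2, at 138 and 11. Csf3r held neither. The genes printed were picked for holding a match, with Csf3r as one without: the precursor genes Ctsg and Ms4a3 held no GAGGAAGT, the secondary granule gene Camp no TTGCNNAA, and the mature gene Retnlg held TTGCNNAA. Windows were found for 27 of the 32 members. GAGGAAGT was present in 8 of them (Mpo, Elane, Prtn3, Mmp8, Itgb2l, Olfm4, S100a8, Ly6g) and in 2.44% of 32851 windows of all genes, and TTGCNNAA in 8 (Ltf, Ngp, Fcnb, Mmp8, Retnlg, S100a9, Anxa1, Ly6g) and in 9.56%. These were chosen for display from 10 patterns after their counts had been seen. Of the shorter or looser forms, which overlap them, GAGGAA was in 17 members and 23.3% of all windows, AGGAAGT in 13 and 7.69%, and TTNCNNAA in 17 and 36.8%. TTGCGNAA was in 0 members and 0.67%, CCAAT in 11 and 33.8%, TATAAA in 7 and 12.4%, AAATCA (GFI1) in 4 and 12.4%, and TGTGGT (RUNX) in 4 and 14% of all windows. A match describes the letters of the window and no binding was measured.

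Neutrophil RNA of every maturation class was most abundant in saline replicate 1 and lowest in poly(I:C) replicates 2 and 3. With all 6 libraries, all 32 members had a lower mean in poly(I:C) than in saline on the log2 scale, where 48.9% of all genes tested did. No member passed the test: 0 of 32 were called lower and 0 higher by edgeR's quasi-likelihood test at an adjusted p under 0.05, against 0.0747% of all genes called lower and 0.883% called higher. At an unadjusted p under 0.05, 26 members were lower, against 10.8% of all genes. Adjusted p over the members ran from 0.164 to 0.468. The median log2 difference over the members, poly(I:C) minus saline, was −2.76, with a median of 0.01 over all genes tested. Without saline replicate 1 it was −1.09 against 0.03 over all genes, and again 0 members were called by edgeR, against 0.106% of all genes called lower and 1.1% called higher. At an unadjusted p under 0.05 there were then 7 members, against 7.75% of all genes that were lower. DESeq2 called 4 members lower with all libraries (Mpo, Prtn3, Cebpe and Camp, against 3.02% of all genes) and gave no adjusted p for 13. Limma-voom with quality weights called 12 lower, against 10.9% of all genes, and 27 without saline replicate 1, against 8.96%. Leaving out replicate 1 of both groups, the libraries highest in these genes, edgeR called 27 lower, against 1.45%. The call therefore depends on the test and on these libraries. The poly(I:C) libraries all lay below all saline libraries for 14 of 32 members, against 14.3% of all genes tested, and above them for 0, against 14%. Since saline replicate 1 was the highest library for all 32, the same 14 lay below saline replicates 2 and 3 alone, against 22.1% of all genes.

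**Figure D1:**
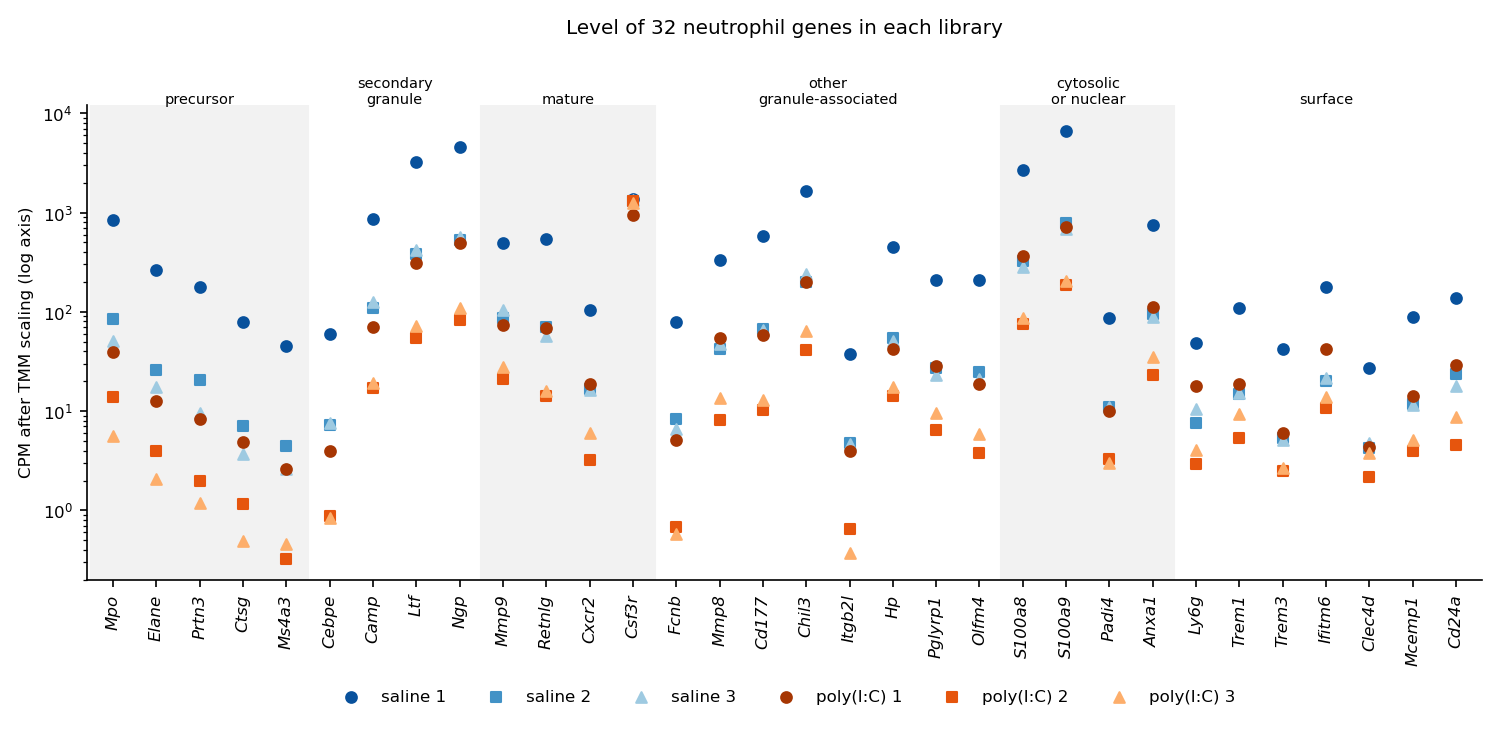
CPM of each of the 32 members (x axis) in each of the 6 libraries (log y axis), grouped by role. Saline replicate 1 is the highest point for all 32 members, poly(I:C) replicate 1 lies mostly near saline replicates 2 and 3, and Csf3r alone keeps its 6 points together.

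The precursor genes had the widest range. Mpo encodes myeloperoxidase, which makes hypochlorous acid in the phagosome. Its level was 831, 85.5 and 51.3 CPM in saline and 39.0, 13.7 and 5.66 CPM in poly(I:C). Every poly(I:C) library lay below every saline library, and saline replicate 1 was at 12.2 times the mean of the other saline libraries. The log2 difference was −4.05 ± 1.26 (SE, 3 against 3 libraries; edgeR adjusted p = 0.173), and −1.85 ± 0.67 without saline replicate 1 (edgeR adjusted p = 0.25).

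Elane, Prtn3 and Ctsg encode the serine proteases of the same granule: neutrophil elastase, proteinase 3 and cathepsin G. Elane stood at 261, 26.2 and 17.4 CPM in saline and at 12.8, 3.99 and 2.07 CPM in poly(I:C). Prtn3 stood at 177, 20.5 and 9.46 CPM in saline and at 8.32, 1.98 and 1.18 CPM in poly(I:C). For both, the groups did not overlap, and the gap between poly(I:C) replicate 1 and saline replicate 3 was small. Ctsg stood at 78.5, 7.01 and 3.71 CPM in saline and at 4.86, 1.15 and 0.49 CPM in poly(I:C). Poly(I:C) replicate 1 there lay above saline replicate 3, so the groups overlapped. Ms4a3 encodes a membrane protein of granulocyte and monocyte progenitors. It was at 45.0, 4.42 and 2.59 CPM in saline and at 2.61, 0.33 and 0.46 CPM in poly(I:C), with poly(I:C) replicate 1 and saline replicate 3 almost level. The log2 differences of these 4 genes were −4.01 ± 1.24 for Elane, −4.17 ± 1.30 for Prtn3, −3.77 ± 1.37 for Ctsg and −3.93 ± 1.34 for Ms4a3 (SE), and none was called (edgeR adjusted p from 0.172 to 0.202 over the 5 precursor genes). Without saline replicate 1 the precursor median moved from −4.01 to −1.83.

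The secondary granule genes separated the groups most evenly. Cebpe encodes C/EBP epsilon, the factor required for secondary granule formation. It was at 59.6, 7.25 and 7.61 CPM in saline and at 3.92, 0.89 and 0.83 CPM in poly(I:C). Camp, the precursor of the antimicrobial peptide cathelicidin, was at 859, 110.0 and 126 CPM in saline and at 71.1, 17.0 and 19.4 CPM in poly(I:C). All 4 genes of this class had every poly(I:C) library below every saline library, and saline replicate 2 was at 0.87 to 0.95 times saline replicate 3.

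Ltf encodes lactoferrin, which binds iron and withholds it from bacteria, and had 3254, 379 and 417 CPM in saline and 312, 54.1 and 72.2 CPM in poly(I:C). Ngp, a cystatin-like granule protein, had 4588, 534 and 569 CPM in saline and 496, 82.1 and 110.2 CPM in poly(I:C). Poly(I:C) replicate 1 was only slightly below saline replicates 2 and 3 for Ngp, whose mean was 1.11 times its level, and further below for Cebpe, with a ratio of 1.89. The log2 differences ran from −3.72 ± 1.08 (SE) for Cebpe to −3.05 ± 1.11 for Ngp, with edgeR adjusted p from 0.164 to 0.201. The class median was −3.28, and −1.62 without saline replicate 1, when Cebpe had −2.01 ± 0.65 (SE; edgeR adjusted p = 0.218). In that comparison of 2 against 3 libraries DESeq2 called 1 member, Cebpe, against 2.38% of all genes called lower.

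**Figure D2:**
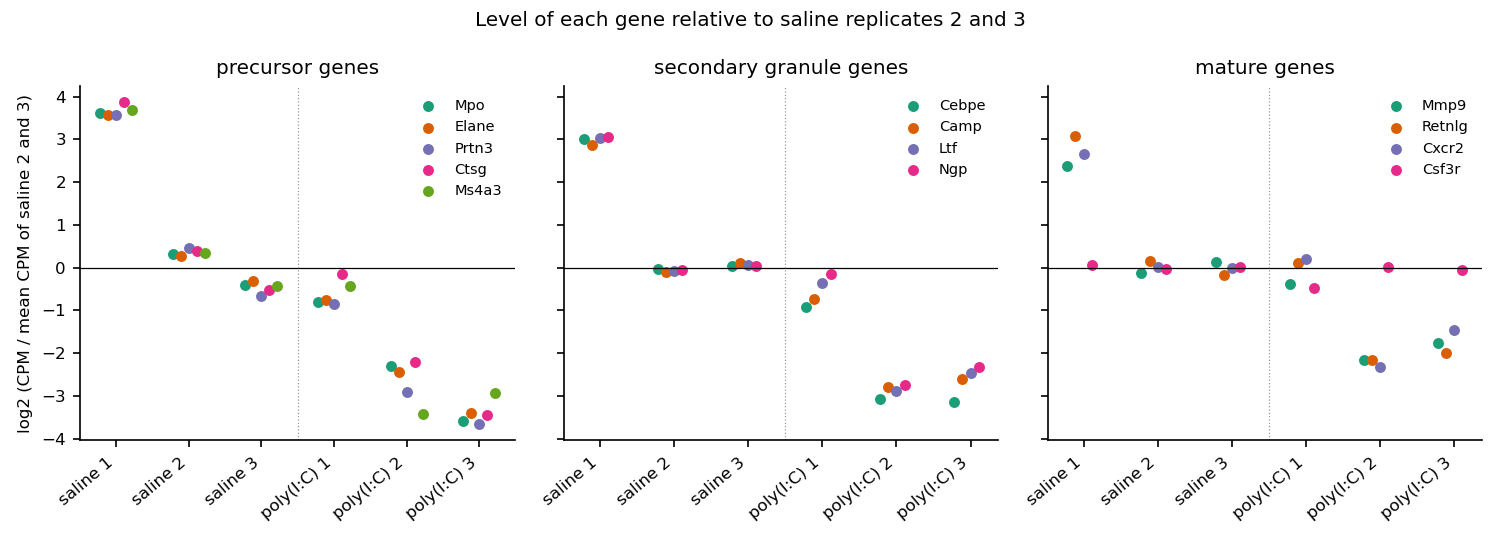
Log2 ratio of each gene's CPM in a library to its mean CPM in saline replicates 2 and 3, for the precursor, secondary granule and mature genes. Saline replicate 1 is highest in each panel, poly(I:C) replicates 2 and 3 are lowest except for Csf3r, and the precursor points of saline replicates 2 and 3 lie apart while the secondary granule points coincide.

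Among the mature genes, Csf3r, the receptor for granulocyte colony-stimulating factor, behaved unlike the rest. It is a receptor that mouse microglia also express. Its level was 1359, 1291 and 1331 CPM in saline and 945, 1315 and 1251 CPM in poly(I:C). Saline replicate 1 was at 1.04 times the mean of the other saline libraries, so the library that stood apart for 31 members did not for this one. The log2 difference was −0.18 ± 0.14 (SE; edgeR adjusted p = 0.468). Class values of the mature genes are therefore given with and without Csf3r.

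Cxcr2, the receptor that draws neutrophils along CXC chemokine gradients, was at 104, 16.5 and 16.3 CPM in saline and at 18.8, 3.25 and 6.01 CPM in poly(I:C). Retnlg, a resistin-like secreted protein of blood neutrophils, was at 538, 70.5 and 56.7 CPM in saline and at 68.1, 14.1 and 15.9 CPM in poly(I:C). For both genes poly(I:C) replicate 1 lay within the range of the saline libraries. Mmp9, the gelatinase of the late granules, was at 493, 87.4 and 104 CPM in saline and at 73.1, 21.3 and 28.0 CPM in poly(I:C). It was the 1 mature gene of 4 whose groups did not overlap. The log2 differences were −2.28 ± 0.95 for Cxcr2, −2.76 ± 1.06 for Retnlg and −2.48 ± 0.80 for Mmp9 (SE; edgeR adjusted p from 0.181 to 0.23). The median of these 3 was −2.48, and −0.999 without saline replicate 1. With Csf3r the class median was −2.38 and −0.92.

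The 8 other granule-associated genes were split between genes whose groups separated and genes whose groups overlapped. Fcnb, the complement-activating lectin ficolin B, was at 79.8, 8.34 and 6.57 CPM in saline and at 5.17, 0.68 and 0.57 CPM in poly(I:C). Olfm4, olfactomedin 4 of a subset of neutrophils, was at 211, 25.0 and 20.9 CPM in saline and at 18.6, 3.81 and 5.92 CPM in poly(I:C). Neither gene's groups overlapped. Cd177, a surface and granule glycoprotein, Itgb2l, an integrin beta chain, and Hp, haptoglobin, also had no overlap, which makes 5 of 8. Mmp8 (neutrophil collagenase), Chil3 (the chitinase-like protein Ym1) and Pglyrp1 (a peptidoglycan-binding protein) did overlap. Their level in poly(I:C) replicate 1 was 54.0, 200.2 and 28.2 CPM, within the saline ranges of 42.4 to 331, 197 to 1635 and 23.0 to 208 CPM. The log2 differences over the 8 ran from −3.88 to −2.47 with a median of −3.01, and from −1.84 to −0.79 with a median of −1.23 without saline replicate 1.

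S100a8 and S100a9 encode the 2 chains of calprotectin, the most abundant cytosolic protein of neutrophils. S100a9 was at 6679, 779.9 and 689 CPM in saline and at 713, 188 and 203 CPM in poly(I:C). S100a8 was at 2655, 325 and 280.4 CPM in saline and at 368, 75.4 and 87.2 CPM in poly(I:C). Poly(I:C) replicate 1 lay between the saline libraries for both chains. Padi4, the deiminase that citrullinates histones in extracellular traps, and Anxa1, a calcium-dependent phospholipid-binding protein, complete this group. The 4 log2 differences ran from −2.88 to −2.45, and from −1.04 to −0.74 without saline replicate 1.

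The 7 surface genes showed the smallest differences after Csf3r. Ly6g, the antigen by which mouse neutrophils are usually sorted, was at 48.2, 7.62 and 10.6 CPM in saline and at 17.9, 2.96 and 4.02 CPM in poly(I:C). Ifitm6, of the interferon-induced transmembrane family, was at 178, 20.1 and 21.4 CPM in saline and at 41.8, 10.8 and 13.8 CPM in poly(I:C). Both had more RNA in poly(I:C) replicate 1 than in saline replicates 2 and 3. The log2 difference of Ly6g was −1.41 ± 0.92 (SE; edgeR adjusted p = 0.384), and −0.18 ± 0.72 without saline replicate 1. That of Ifitm6 was −1.72 ± 0.97 (edgeR adjusted p = 0.324), and without saline replicate 1 it had the opposite sign, 0.06 ± 0.53 (edgeR adjusted p = 0.958). Ifitm6 was the only member with a positive value there. The receptors Trem1 and Trem3, the lectin Clec4d, Mcemp1 and Cd24a lay between −1.80 and −2.26 with all libraries and between −0.40 and −0.62 without saline replicate 1. The groups overlapped for all 7.

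**Figure D3:**
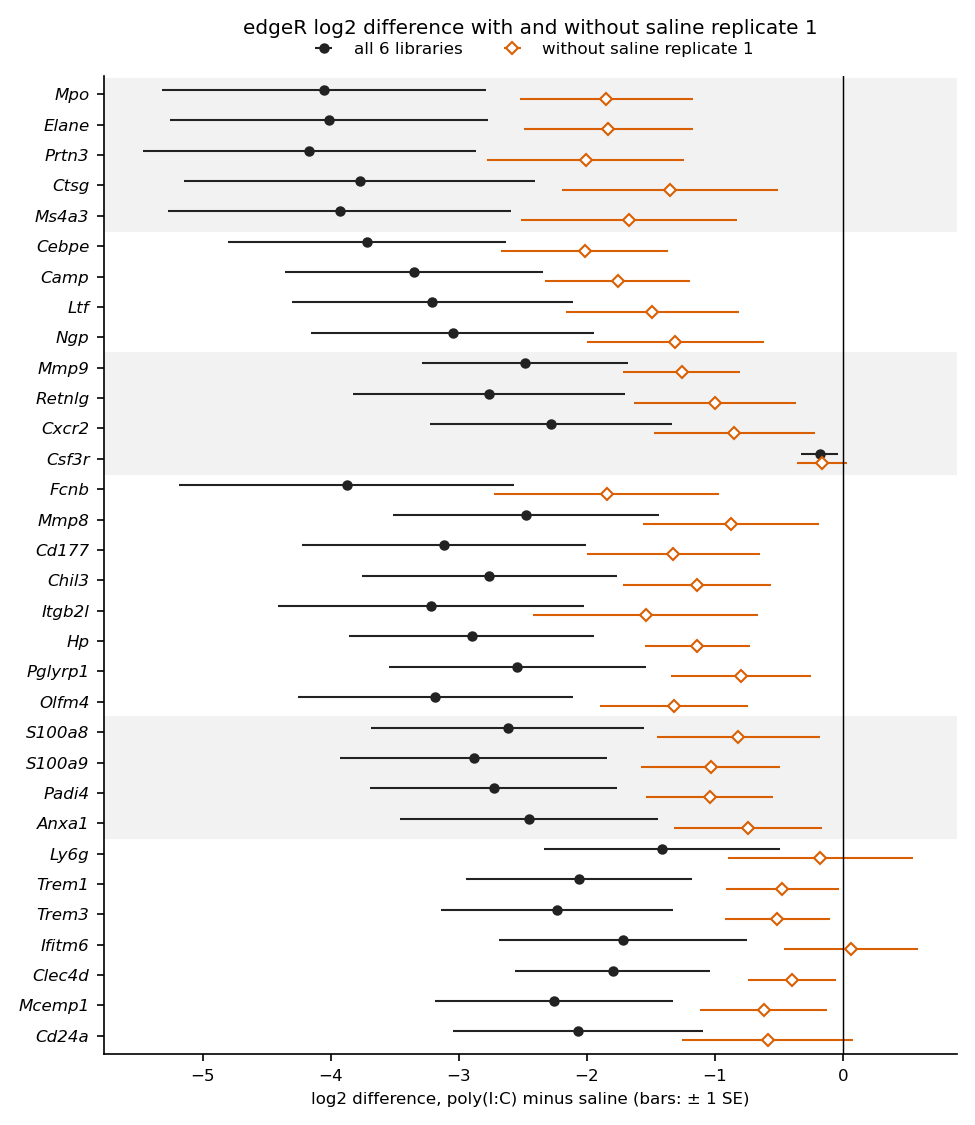
Log2 difference, poly(I:C) minus saline, of each member with all 6 libraries (filled circles) and without saline replicate 1 (open diamonds), with bars of 1 SE. All 32 filled points lie below 0, leaving out the 1 library moves 31 members by far more than Csf3r, and Ifitm6 ends at 0.06.

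The classes did not scale together from library to library. The excess of saline replicate 1 over the mean of saline replicates 2 and 3 was 11.8 to 14.6 times for the 5 precursor genes. It was 7.27 to 8.32 times for the 4 secondary granule genes and 5.16 to 8.46 times for Mmp9, Cxcr2 and Retnlg, with Csf3r at 1.04 times. The precursor range therefore did not touch the others in that library. Saline replicates 2 and 3 also differed in the precursors: replicate 2 had 1.51 to 2.17 times the level of replicate 3 for all 5, but 0.87 to 0.95 times for the 4 secondary granule genes. Within poly(I:C), replicate 2 was above replicate 3 for Mpo (2.43 times), Ctsg (2.36), Elane (1.93) and Prtn3 (1.68), and below it for Ms4a3 (0.71). The Ms4a3 ratio rests on 11 and 16 counts and that of Ctsg on 39 and 17, which limits both.

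Classes were also compared inside each library, as a difference of their mean levels. The mean log2 CPM of the secondary granule genes minus that of Mmp9, Cxcr2 and Retnlg was 1.63, 1.27 and 1.42 in the saline libraries. In the poly(I:C) libraries it was 0.84, 0.70 and 0.45. The means were 1.44 ± 0.18 in saline and 0.66 ± 0.20 in poly(I:C) (SD, n = 3 each), and the groups did not overlap with or without saline replicate 1. The value was highest in the library with the largest share of member counts and lowest in the 2 with the smallest, and the part of that share in it was not tested. With Csf3r among the mature genes it was 1.09, 0.07 and 0.21 in the saline libraries and −0.26, −1.07 and −1.18 in the poly(I:C) libraries, also without overlap. Csf3r changed little between libraries, so a value that includes it falls whenever the other members fall together. It is no separate measure of the classes. The 31 genes took about the same share of counts in poly(I:C) replicate 1 as in saline replicates 2 and 3. Its value was below that of every saline library with and without Csf3r. This is 1 library, and the part of the share in its value was not tested. The corresponding value for the precursor genes was −0.84, −1.46 and −2.25 for saline, and −2.37, −2.24 and −3.47 for poly(I:C). Saline replicate 3 and poly(I:C) replicate 2 were almost level there, and the groups overlapped. With Csf3r it was −1.39, −2.65 and −3.47 for saline, and −3.46, −4.00 and −5.09 for poly(I:C), also with overlap. Precursors minus secondary granule genes gave −2.47, −2.73 and −3.68 for saline, and −3.20, −2.94 and −3.92 for poly(I:C), with overlap. These within-library values were chosen after the levels had been seen and carry no test.

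Each member was also set against the median of the other members (without Csf3r) in the same library. On this scale 11 members were lower in all poly(I:C) libraries than in all saline libraries: Elane, Prtn3, Ms4a3, Fcnb, Cebpe, Camp, Ltf, Ngp, Cd177, Itgb2l and Olfm4. Another 3, Anxa1, Pglyrp1 and Ifitm6, were higher in all. By construction some members lie on each side of the median. Of all genes with a count in every library 0.171% were lower and 26.5% higher in this way. The mean log2 CPM of the 31 members was 5.98 in saline and 3.50 in poly(I:C). This moves genes outside the set upward on this scale, so these shares are no neutral background for the members. Cebpe was 2.49-fold lower relative to the others and Olfm4 1.63-fold lower, with the 3 poly(I:C) values of Olfm4 between −0.64 and −0.61 on the log2 scale against 0.00 to 0.14 in saline. Ifitm6 was 2.17-fold higher, at −0.24, −0.35 and 0.14 in the saline libraries against 0.86, 1.12 and 0.93 in the poly(I:C) libraries. S100a9, S100a8, Cxcr2 and Mmp8 lay between 1.07-fold lower and 1.03-fold higher.

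**Figure D4:**
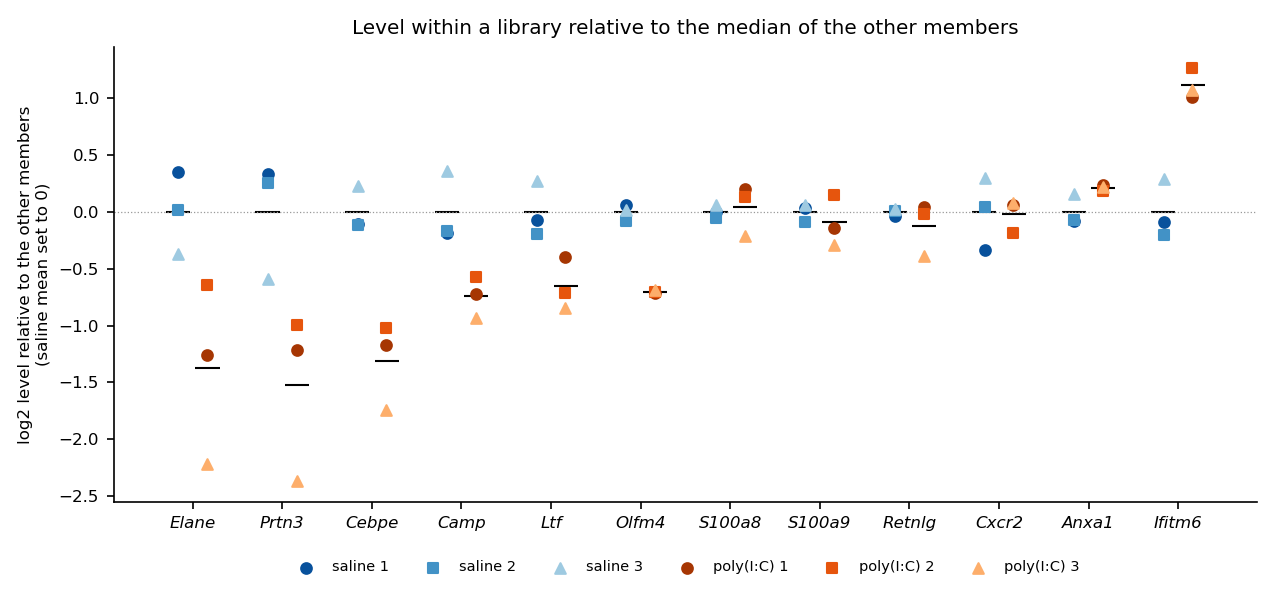
Log2 level of 12 members in each library relative to the median of the other members there, with each gene's saline mean set to 0 (short lines: group means). Elane, Prtn3, Cebpe, Camp, Ltf and Olfm4 have all poly(I:C) points below all saline points, Anxa1 and Ifitm6 have them above, and S100a8, S100a9, Retnlg and Cxcr2 overlap.

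Levels between genes were compared per kilobase of exon (lengths from GENCODE M21) over the mean of saline replicates 2 and 3. S100a9 led with 1407 CPM per kb, followed by S100a8 with 623, Ngp with 451, Csf3r with 374 and Camp with 156. Chil3 and Ltf were level at 142. The lowest were Itgb2l with 1.62, Clec4d with 3.40 and Ms4a3 with 3.46 CPM per kb. Among the precursor genes Mpo (23.5) and Elane (22.2) were close, then Prtn3 (14.6), Ctsg (5.35) and Ms4a3. In these 2 libraries the calprotectin genes and Ngp, Camp and Ltf were thus above every precursor gene per kb, while Cebpe (5.98) was below Mpo, Elane and Prtn3.

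Other genes of granulocyte development and function were read from a list of 53, of which 50 had a row and 47 were tested. By edgeR 0 of 47 were called lower or higher, against the same 0.0747% and 0.883% of all genes. At an unadjusted p under 0.05, 20 were lower and 0 higher, against 10.8% and 10.5% of all genes. On the log2 scale 42 were negative (48.9% of all genes were) and 5 positive, with a median of −0.89, and 36 and 11 with a median of −0.29 without saline replicate 1. The list mixes genes of neutrophils with genes that microglia share, and it was the shared transcription factors that had the smallest p. Cebpa was at 378, 409.7 and 486 CPM in saline and 208, 297 and 259 CPM in poly(I:C). Its log2 difference was −0.74 ± 0.16 (SE; edgeR adjusted p = 0.112). Cebpd, Cebpb and Spi1, which encodes PU.1, had −0.94 ± 0.21, −0.88 ± 0.21 and −0.60 ± 0.14, with no overlap of the groups. For these 4 genes saline replicate 1 was at 0.84 to 1.40 times the mean of the other saline libraries, so the factors did not share its excess.

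Gfi1, the repressor that commits progenitors to the neutrophil line, did follow the precursor genes. It was at 18.2, 2.57 and 1.12 CPM in saline and at 0.80, 0.24 and 0.23 CPM in poly(I:C) (log2 difference −4.10 ± 1.17, SE; edgeR adjusted p = 0.161). Slpi, a protease inhibitor, and Wfdc21 had log2 differences of −2.61 ± 0.88 and −3.16 ± 1.10 (SE; edgeR adjusted p = 0.19 and 0.194). Lcn2, the iron-sequestering lipocalin of secondary granules, was at 1349, 150.5 and 154 CPM in saline and at 179, 34.7 and 46.7 CPM in poly(I:C). Slfn4, a Schlafen gene of myeloid cells, went the other way: it was at 213, 30.1 and 25.3 CPM in saline and at 228, 62.6 and 130.3 CPM in poly(I:C). Its log2 difference was 0.65 ± 0.88 (SE; edgeR adjusted p = 0.674), and 2.31 ± 0.49 without saline replicate 1 (edgeR adjusted p = 0.105). Lcn2 and Slfn4 are named here after their values had been seen.

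Outside all lists, the 8 genes whose log2(CPM + 1) over the 6 libraries was most like the mean of the precursor genes were Aldh2, Mapk13, Palm, Adgrg3, Pde2a, Atp2a3, Phospho1 and Arhgap23. Pearson's r ran from 0.992 to 0.987 among 10232 candidates. With 6 libraries, of which 1 is far from the rest, this is a description. Adgrg3, an adhesion receptor of granulocytes, was at 51.8, 5.72 and 5.72 CPM in saline and at 5.77, 1.48 and 1.15 CPM in poly(I:C). Aldh2, a mitochondrial aldehyde dehydrogenase, was at 352, 171 and 173 CPM in saline and at 157, 118 and 112 CPM in poly(I:C).

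Markers of some other cells were also high in saline replicate 1. The 15 cell cycle genes summed to 798 CPM there, 219 and 236 CPM in the other saline libraries and 286, 228 and 243 CPM in poly(I:C), and all 15 were highest in saline replicate 1. Mki67, a marker of dividing cells, was at 207, 39.1 and 44.0 CPM in saline. The 12 eosinophil, basophil and mast cell genes summed to 1110 CPM there, 185 and 181 CPM in the other saline libraries and 200, 82.5 and 94.3 CPM in poly(I:C). The eosinophil granule protein gene Prg2 alone was at 451, 49.5 and 41.8 CPM in saline and 57.2, 6.47 and 11.9 CPM in poly(I:C), the same 3 levels as the neutrophil genes. The sum of the 9 haematopoietic progenitor genes did not follow this order. It was 221, 137 and 161 CPM in saline and 265, 225 and 254 CPM in poly(I:C), and was mostly Cd34. Gene by gene, 5 of the 9 were highest of all libraries in saline replicate 1. There, 3 of the 9 were over 4 times the mean of the other saline libraries. Cd34, which has the highest level on that list, was at 172, 119 and 149.6 CPM in saline and at 241, 212 and 238 CPM in poly(I:C). Myb, a factor of dividing progenitors, was at 25.8 CPM in saline replicate 1 and at 2.02 to 2.83 CPM in the others.

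The 10 monocyte genes summed to 1418, 566 and 709 CPM in saline and to 1331, 643 and 772 CPM in poly(I:C), high in replicate 1 of both groups. Of these 10, edgeR called 1 higher, Ms4a4c, and 0 lower, against 0.883% and 0.0747% of all genes. Ms4a4c was at 13.9, 5.28 and 5.31 CPM in saline and at 76.1, 41.3 and 55.1 CPM in poly(I:C). Its log2 difference was 2.82 ± 0.44 (SE, edgeR adjusted p = 0.046). On the log2 scale 5 of the 10 were negative and 5 positive. The 10 B-lineage genes with a row summed to 28.5 CPM in saline replicate 1 and 13.7 to 16.2 CPM in the others. Of these 10, 9 were highest of all libraries in saline replicate 1. There, 7 were over 4 times the mean of the other saline libraries, and 4 of the 10 had 0 counts in some library. The sum of the 11 erythroid genes was not highest in saline replicate 1, though 4 of the 11 genes were. The sum was 130, 450 and 56.0 CPM in saline, with saline replicate 2 the highest. In poly(I:C) it was 50.1, 25.2 and 44.8 CPM. The 9 microglial genes with a row summed to 35722, 40000 and 41560 CPM in saline and 28131, 38917 and 36257 CPM in poly(I:C). The part of any of these cells in the values of the 32 members was not tested.

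**Figure D5:**
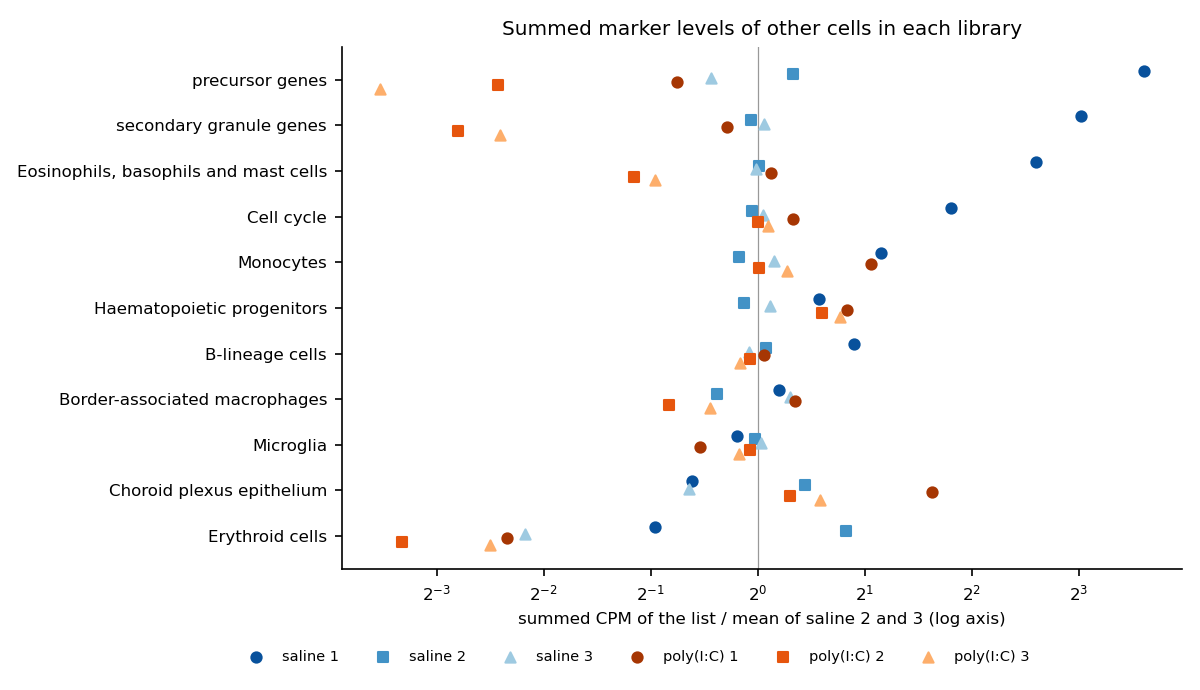
Summed CPM of each list in each library divided by the mean of saline replicates 2 and 3 (log axis). Saline replicate 1 is far to the right for the precursor, secondary granule, eosinophil and cell cycle lists, near 1 for microglia, and left of saline replicate 2 for erythroid genes.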

How the data were processed

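RNA was profiled in 6 libraries of bead-enriched cerebellar microglia, 3 per group by the labels. The authors deposited raw read counts per gene symbol, neither normalised nor pooled. The tools were fastp, HISAT2 and HTSeq with GRCm39, per the submitters' processing notes (versions, strand setting and annotation: not given in the sources used here). Close paralogs and overlapping genes may therefore share or lose reads. Full-length cDNA was amplified by PCR per the labels' protocols, so counts are of reads, not of molecules.

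From the counts, poly(I:C) was compared with saline by edgeR 4.0.16 in R 4.3.3 (filterByExpr by group with a minimum count of 10, TMM scaling, glmQLFit and glmQLFTest, no covariate), with Benjamini-Hochberg adjustment over all 14727 genes tested and calls at an adjusted p under 0.05. The SE is the absolute log2 difference divided by the square root of F. Members and lists were chosen with earlier results of these data known. Named genes were all members, the 8 other neutrophil genes of smallest p (1 is not reported here), the top 3 by mean CPM of each marker list (others are named for context), and the 8 genes most like the precursors with a mean of at least 5 CPM. No library duplicated another of its group (chi-square per gene from 22.3 to 124). Alternatives used DESeq2 1.42.0, limma 3.58.1 (voom with quality weights), other scalings and filters, a replicate block and left-out libraries. The code was tested on simulated data.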

Additional observations from a re-analysis of the deposited data

How the results depend on the processing

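Under 3 other scalings and 2 other filters edgeR called 0 members and 0 of the other neutrophil genes in either direction, and with each library left out in turn 0 members; a stricter filter (5 CPM in 3 libraries) kept 29 members. Of the other neutrophil genes, 0 to 1 were called lower with a library left out (Cebpd, without poly(I:C) replicate 2, against 0.132% of all genes). Leaving out each library gave medians from −5.15 to −1.83 for the precursor, −4.35 to −1.62 for the secondary granule and −3.23 to −0.92 for the mature genes, each nearest 0 without saline replicate 1; Ifitm6 ran from −2.55 to 0.0629, its only positive value there.

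Other tests gave other counts. Members called lower numbered 4 with DESeq2 (3.02% of all genes) and 12 with limma-voom and quality weights (10.9%). Without saline replicate 1 they numbered 1 with DESeq2 (2.38%) and 27 with limma-voom (8.96%). The corresponding counts of other neutrophil genes were 7 of 44, 7 of 47, 3 of 47 and 19 of 47 lower, against the same shares. Slfn4 was the 1 called higher by limma-voom with all libraries (8.61% of all genes). It was also the 1 called higher without saline replicate 1, by DESeq2 (3.85%) and by limma-voom (7.97%). Without replicate 1 of both groups edgeR called 27 members and 8 of 47 other neutrophil genes lower (1.45% of all genes). Slfn4 was the 1 called higher there, against 2.4% of all genes. The replicate 1 libraries have the highest neutrophil RNA of their groups, so leaving them out narrows the spread. These combinations with DESeq2 and limma-voom were chosen after seeing the data. The cause of these differences was not tested.

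With the replicate number as a block, 23 members (0.604% of all genes) and 6 other neutrophil genes were called lower. The labels do not say whether equal numbers pair the libraries. Same-numbered deviations correlated at 0.172, −0.0628 and 0.273, and not every library correlated best with its own number. With 3 libraries per group these correlations cannot decide whether the numbers pair the libraries. Members of low level had as few as 11 counts in a library, which limits Ctsg, Ms4a3, Fcnb, Cebpe and Itgb2l.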
